A study of Citrus unshiu with 2 samples.

Results

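The genes described here are 1258 genes of Citrus unshiu, the satsuma mandarin, whose exons were methylated at CHG sites while carrying little CHH methylation. They are 4.33% of the 29073 genes that are listed in both of the study's libraries. A gene was taken when its exon CHG level, averaged over both libraries, was at least 20% and its exon CHH level, averaged in the same way, was under 10%. The genes were thus selected on exon CHG and CHH levels, which are given below as a description. H stands for any base other than G.

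The study compared shoots of trees under light drought with shoots of normally watered trees, with 1 whole-genome bisulfite library for each condition. The labels give the tissue as shoots and mature stems and a light drought of 75 days, in which the soil was left to dry to about 15% moisture, and name 20 trees chosen for each condition. The trees of both conditions grew in pots in the same rain-proof tunnel under the natural photoperiod. The number of trees in each library was not stated in the labels. Each value is the share of methylated cytosines in a gene region, in percent, as the authors deposited it. The read depth behind it is unknown, and with 1 library per condition no difference below has a replicate check or a test. A library mixes many cells, so partial methylation in every cell and full methylation in some of them cannot be told apart.

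In plants, CHG methylation is kept by chromomethylases that are drawn to histone H3 methylated on lysine 9, and the histone methyltransferases that set this mark are in turn drawn to methylated DNA. RNA-directed DNA methylation places CHH marks mostly at the edges of transposons and near genes, and CMT2 places them inside long transposons. Transposons usually carry CG, CHG and CHH methylation together. Many expressed genes carry CG methylation in their exons with little CHG or CHH methylation. In Arabidopsis the histone demethylase IBM1 keeps CHG methylation out of such genes.

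The exons of these genes had a median CHG level of 47.3% in the light drought library and 46.5% in the normal water library. The quartiles were 31.4% and 72.1% under light drought, and 30.5% and 71.9% under normal water. The genes therefore spread over the whole range above the threshold: 266 of them had an average exon CHG level between 20 and 30%, and 175 had one of at least 80%. They made up 91.1% of the 292 genes of the series with an exon CHG average between 20 and 30%, but 7.998% of the 2188 genes with one of at least 80%. The median exon CHH level was 6.22% under light drought, against 5.33% under normal water, and 51 genes had an average under 1%.

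CG methylation, which the choice of genes did not use, accompanied CHG in most of these exons. The median exon CG level was 62.0% in the light drought library and 61.5% in the normal water library, and 396 genes had an average of at least 80%. It followed the CHG level. Where the exon CHG average lay between 20 and 40% (509 genes), the median exon CG level was 42.2% under light drought, against 38.3% under normal water. Where it was at least 80% (175 genes), the exon CG medians were 93.8% and 93.4%. The rank correlation of exon CG with exon CHG over the 1258 genes was 0.63 in the light drought library and 0.62 in the normal water library. These points share a library and the reads of the same exons.

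A minority of these genes departed from that order. In 309 genes (24.6%) the exon CHG average was above the exon CG average, a share close to the 26.2% found among the 3199 genes with an exon CHG average of at least 20% and a CHH average of at least 10%. An exon CG average under 20% was found in 86 genes, and in 49 of them exon CG was listed at 0 in both libraries. The files do not tell an unmethylated region from one without covered cytosines, so a listed 0 may be either. Cs1g08750 is one of the 49, with exon CHG levels of 67.0% in the light drought library and 53.3% in the normal water library. No gene of the series could be given a name or a function, because none of its identifiers matched the reference table used here.

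The thresholds cut through a continuum. At the CHG threshold, the 2 genes just inside stood at an average of exactly 20%, both with 0% under light drought, against 40% under normal water. The 2 genes just outside had averages of 19.98 and 19.96%. At the CHH threshold, the genes just inside had averages of 9.995 and 9.985%, and those just outside had exactly 10%.

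The libraries did not always agree on the choice. Of the 1258 genes, 878 (69.8%) met both thresholds in each library taken alone, 136 met them under light drought only, 201 under normal water only, and 43 in neither library alone. In 94 genes (7.47%) exon CHG was listed at 0 in 1 library, in 58 of them under light drought and in 36 under normal water. In 83 of the 94, all exon cytosines together were at 0 there. Exon CHG was listed at 0 in 1 library in 2.50% of the 3199 CHG- and CHH-methylated genes. Whether missing coverage is behind these zeros was not tested. The main exon results below are given with and without them.

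**Figure D1:**
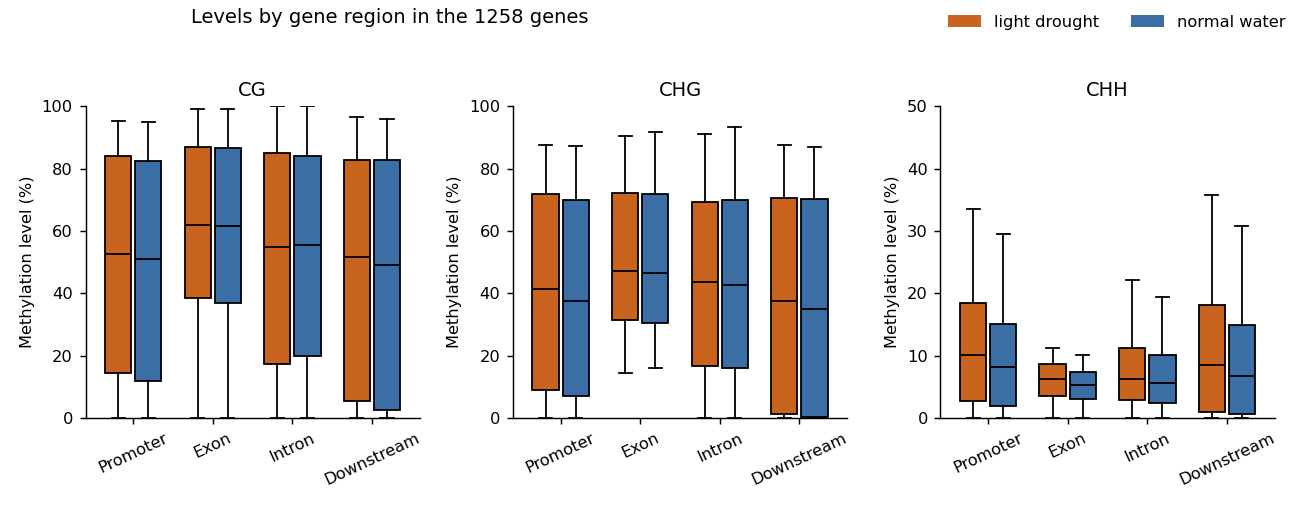
Methylation levels (%) of promoters, exons, introns and downstream flanks of the 1258 genes in CG, CHG and CHH. Boxes show quartiles and medians over genes, whiskers the 5th and 95th percentiles, orange the light drought library and blue the normal water library. Introns are shown for the 721 genes with an intron level above 0. CHG medians lie between 34.9 and 47.3% in all 4 regions, while CHH medians are lowest in exons and introns and highest in promoters.

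Introns had nearly the CHG level of the exons. An intron level above 0 in at least 1 library was listed for 721 of the genes (57.3%). Their median intron CHG level was 43.8% in the light drought library and 42.8% in the normal water library, next to exon medians of 44.98% and 43.3% in the same genes. In 532 of the 721 (73.8%) the intron CHG average was at least 20%, and in 84 (11.7%) it was under 5%. Intron CHH, which was not used in the choice, was as low as exon CHH, with medians of 6.30% under light drought, against 5.53% under normal water. Among the CHG- and CHH-methylated genes the intron CHH medians were 18.5% and 16.9%, over 1894 genes.

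The untranslated regions were less uniform. Levels above 0 were listed for the 5' UTR of 266 genes and for the 3' UTR of 313 genes. The median 5' UTR CHG level was 33.6% in the light drought library and 32.4% in the normal water library, and 28.6% of these 5' UTRs had an average under 5%. The median 3' UTR CHG level was 39.2% under light drought, against 36.95% under normal water, with 22.0% under 5%. Most UTRs thus shared in the CHG methylation of the exons, but the share without it was larger than in introns. UTR levels above 0 were listed in 21.1% of the 1258 genes for the 5' UTR and in 24.9% for the 3' UTR. Among the CHG- and CHH-methylated genes these shares were 8.50% and 8.69%. Among genes with exon CHG between 5 and 20% they were 34.3% and 40.9%. All 5' UTR cytosines together were at 0 in both libraries in 78.9% of the 1258 genes, against 59.7% of all 29073 genes. For the 3' UTR this was 75.1% against 48.6%.

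CHG methylation reached beyond the gene in most cases, but not evenly. With a flank counted as CHG-methylated at an average of at least 20%, both promoter and downstream flank were methylated in 530 genes (42.1%), the promoter alone in 295 (23.4%), the downstream flank alone in 226 (18.0%) and neither in 207 (16.5%). The files do not state how long a promoter or a downstream flank is. A listed 0 was counted as under 20%, though it may be a flank without covered cytosines. All downstream cytosines together were at 0 in both libraries in 209 of the 1258 genes (16.6%), and all promoter cytosines in 85 (6.76%). The same class was found in each library taken alone for 1114 of the 1258 genes (88.6%). Both flanks were methylated in 42.8% of the genes under light drought and in 40.2% under normal water.

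This placed the genes between the other groups of the series. Both flanks were CHG-methylated in 71.4% of the 3199 CHG- and CHH-methylated genes, in 18.0% of the 1248 genes with exon CHG between 5 and 20%, and in 17.1% of all 29073 genes. Neither flank was CHG-methylated in 4.38%, 36.1% and 46.1% of these groups. These shares are descriptions of gene sets in the same 2 libraries, and no test of their differences was made.

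**Figure D2:**
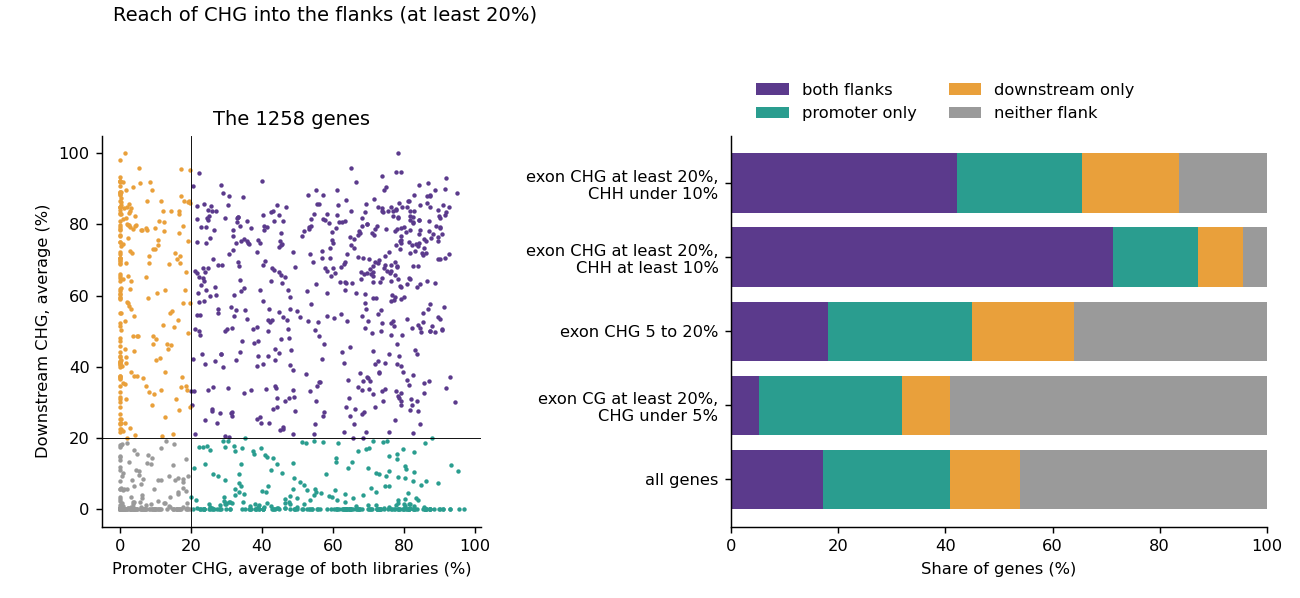
Left, promoter against downstream CHG level (%, average of both libraries) for each of the 1258 genes, with lines at 20% and colours for the flank classes. Right, share of genes (%) in each flank class for the 1258 genes (top bar), 3 other gene groups and all genes. Genes fill all 4 corners on the left, and the bar of the 1258 genes has 42.1% with both flanks methylated.

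CHG in one flank said little about CHG in the other. Over the 1258 genes, promoter and downstream CHG had a rank correlation of 0.12 in the light drought library and 0.13 in the normal water library. Promoter CHG and exon CHG had rank correlations of 0.23 in the light drought library and 0.27 in the normal water library, and downstream and exon CHG of 0.18 and 0.24. Genes with more exon CHG had methylated flanks more often, up to 80% exon CHG. Both flanks were methylated in 31.2% of the genes with exon CHG between 20 and 40%, in 57.6% of those between 60 and 80%, and in 53.7% of those above.

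Where a flank was methylated, its CHG level was commonly as high as that of the exons. Among the 530 genes with both flanks methylated, the median CHG levels were 65.2% in promoters, 56.2% in exons and 65.6% downstream under light drought, against 62.8%, 57.1% and 66.0% under normal water. In 53.2% of these genes the promoter average was at least that of the exons, and in 60.4% the downstream average was. Flanks that missed the 20% mark were mostly listed far below it, though a listed 0 may lack coverage. Genes methylated at the promoter alone had a median downstream CHG level of 0% in both libraries, and genes methylated downstream alone had a median promoter CHG level of 1.68% in the light drought library and 1.14% in the normal water library.

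CHH separated the flanks from the exons. In the genes with both flanks methylated, the median CHH level was 14.25% in promoters, 7.38% in exons and 15.3% downstream under light drought, against 11.5%, 6.12% and 12.5% under normal water. Exon CHH is capped by the choice of genes, while the flank levels are not. The genes with CHG in neither flank had little CHH at the promoter, with median promoter CHH levels of 1.33% under light drought, against 1.00% under normal water. Their exon CHG medians were 36.65% and 35.2%, the lowest of the 4 classes.

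CHH in a methylated flank had a lower median than in other genes with a like CHG level in that flank, a difference for which no test was made. For promoter CHG averages between 60 and 80%, the median promoter CHH level of the 276 CHG-methylated, CHH-poor genes was 15.15% in the light drought library and 13.0% in the normal water library. The 888 CHG- and CHH-methylated genes in that range had 19.5% and 17.6%. The 655 genes there with body CG methylation only (exon CG of at least 20% and exon CHG under 5%) had 31.2% and 25.4%. The order of the 3 groups was the same in all 4 ranges of promoter CHG and all 4 ranges of downstream CHG, in each library. The quartile ranges of the CHH-poor and the CHG- and CHH-methylated genes overlapped in every range.

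**Figure D3:**
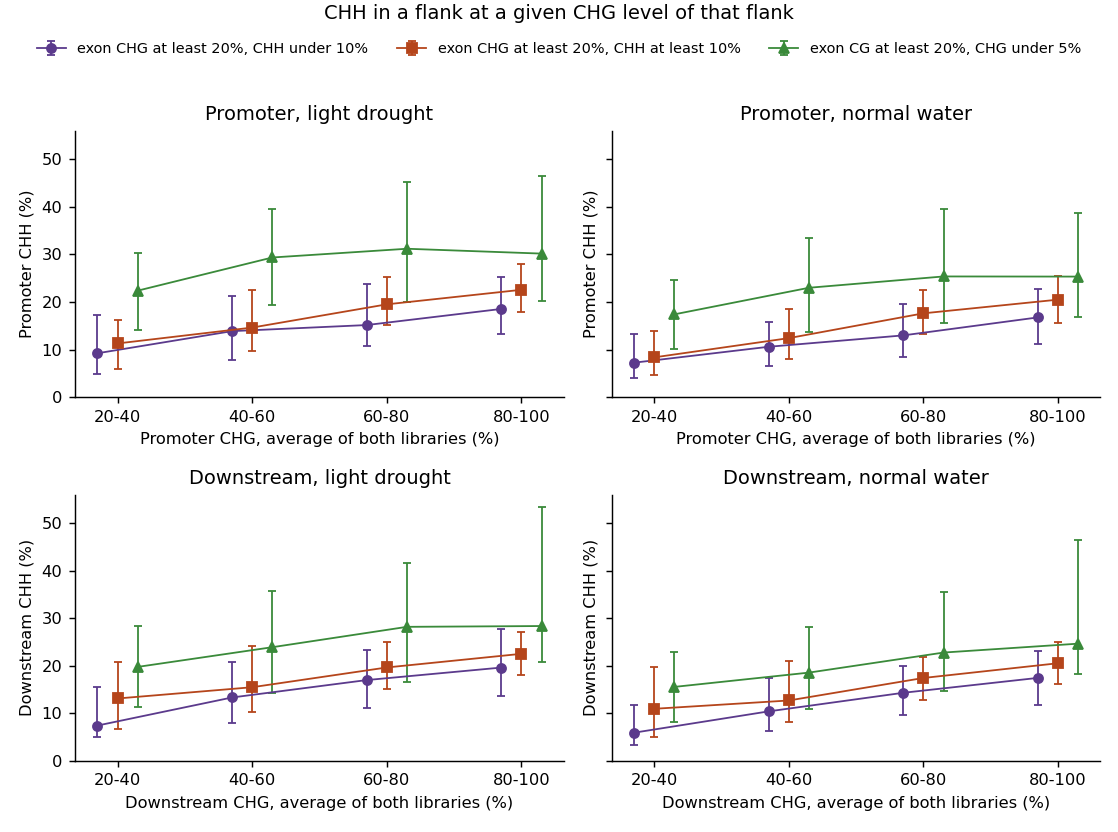
Median CHH level (%) of promoters (top) and downstream flanks (bottom) in ranges of the CHG level of the same flank (%, average of both libraries), under light drought (left) and normal water (right). Bars span the quartiles over genes. The CHH-poor genes (violet circles) have the lowest median in every range, for example 15.15% under light drought at promoter CHG between 60 and 80%.

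Examples show how differently the flanks can behave. Cs7g24540 has the highest sum of promoter, exon and downstream CHG. Its CHG levels were 86.4%, 88.7% and 91.5% in promoter, exons and downstream flank under light drought, against 87.2%, 85.5% and 91.7% under normal water, so CHG was even across the gene and its flanks. Its CHH levels there were 18.1%, 10.3% and 21.1% under light drought, against 16.2%, 7.92% and 16.7%.

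At the other end, 99 genes (7.87%, against 26.6% of all 29073 genes) had a CHG average under 5% in both flanks. Of those with some methylation listed in each flank, orange1.1t05555 had the highest exon CHG, at 65.3% under light drought, against 75.05% under normal water, with promoter CHG at 0% and 0.83% and downstream CHG at 0% in both. Its exon CG was 60.3% and 91.7%. In orange1.1t03631 introns shared the methylation, with CHG at 62.1% and 64.6% in exons and 61.8% and 61.4% in introns under light drought and normal water, while flank CHG reached at most 0.89%. Its promoter CG was listed at 0% and 100% and its promoter CHH at 0% and 10%, so its flank was not free of methylation in the normal water library. The third of these genes, orange1.1t05861, had CG methylation across all regions, with 96.8% and 61.25% in the promoter, 100% and 97.7% in exons and 97.3% and 97.2% downstream under light drought and normal water. Its exon CHG levels were 46.0% and 69.6%, while CHG in either flank was at most 5.24% in either library. CG methylation thus extended into both flanks of this gene, and CHG methylation did not.

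The genes also lay near each other. Identifiers are numbered along the 9 numbered chromosomes in the order of the deposited region positions. On those chromosomes, 176 of 856 of the genes (20.6%) had another of them as the next listed gene on at least 1 side, against 7.05% of all listed genes. A CHG- and CHH-methylated gene was the neighbour of 29.2% of them, against 16.1% of all genes. That share was 33.8% for genes with both flanks CHG-methylated and 20.3% for those with neither. The genes made up 6.99% of the listed genes on the unplaced sequence, and between 2.93% on chromosome 6 and 4.98% on chromosome 9 elsewhere. Of the genes on chromosome 3, 16.2% (19 of 117) had exon CHG at 0 in 1 library, the highest such share, while it was 9.45% on the unplaced sequence (38 of 402) and 1.69% on chromosome 4, the lowest.

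Light drought was then set against normal water. CHH in the flanks was higher under light drought, as it was over all genes. Promoter CHH averaged 12.4% in the light drought library and 10.2% in the normal water library. It was thus 2.14 points higher (SD 4.84 over the 1258 genes, which are not replicates), or 21.0% more than under normal water. Over all 29073 genes the promoter difference was 2.40 points. Downstream CHH was 11.7% under light drought, against 9.70% under normal water, 1.96 points higher, against 1.52 points over all genes. Promoter CHH was higher under light drought in 75.4% of the 1114 genes above 0 in both libraries, and downstream CHH in 76.4% of 990. Over all genes above 0 in both libraries these shares were 76.2% and 74.7%.

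In points, the CHH difference was larger in the methylated flank, but relative to normal water it was not. In genes with the promoter alone CHG-methylated, promoter CHH stood at 17.4% in the light drought library and 14.4% in the normal water library, 3.05 points higher (SD 6.21), and downstream CHH was higher by 0.87 points. In genes with the downstream flank alone methylated, promoter CHH was higher by 0.99 points and downstream CHH by 2.99 points (SD 5.33), at 17.9% against 14.9%. Relative to normal water, promoter-only genes had 21.2% more CHH at the promoter and 36.7% more downstream. Downstream-only genes had 34.3% more at the promoter and 20.0% more downstream. Exon CHH was 6.12% under light drought, against 5.36% under normal water, 0.76 points higher (SD 4.19), or 14.2% more. Over all genes exon CHH was 0.35 points higher, or 13.1% more. Exon CHH was higher in 68.7% of the 1108 genes above 0 in both. This share was 64.2% over all genes above 0 in both and 70.9% among the CHG- and CHH-methylated ones.

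CG and CHG levels hardly differed on average. Exon CHG was 50.65% in the light drought library and 50.5% in the normal water library, a mean difference of 0.18 points with a SD of 23.7 over genes. Without the 94 genes listed at 0 in 1 library, it was 52.6% against 50.8%, a difference of 1.81 points (SD 12.1). Among the 878 genes that met the thresholds in each library it was 1.15 points (SD 10.5). In each case the SD over genes was far larger than the mean difference. Exon CG was 59.8% against 59.1%, a difference of 0.66 points over all 1258 genes and 2.07 points without the 94. Promoter CHG was 41.1% against 39.9% (1.27 points higher, SD 10.9), and downstream CHG 38.9% against 37.8% (1.12 points, SD 11.3).

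**Figure D4:**
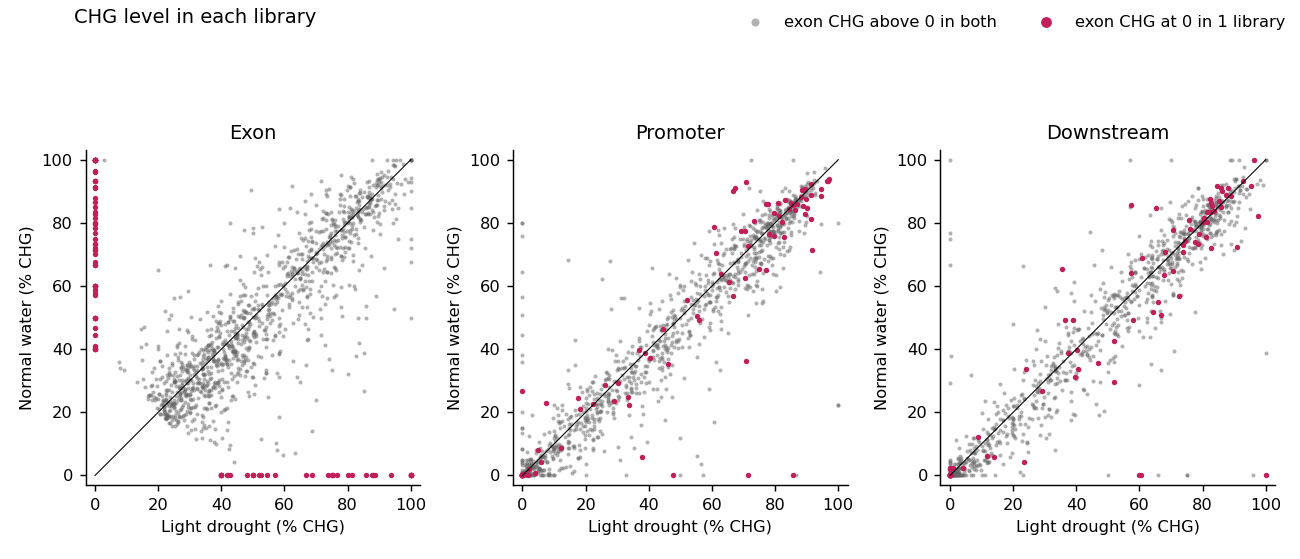
CHG level (%) under light drought (x axis) against normal water (y axis) in exons, promoters and downstream flanks of the 1258 genes, 1 point per gene. The line marks equal levels, and the 94 genes with exon CHG at 0 in 1 library are in red. The red points lie on the axes in exons, where they were chosen, and most of them lie near the line in both flanks.

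The choice of genes set a minimum for the average exon CHG level, so genes listed at 0 in 1 library had to differ widely. A smaller exon CHG spread and a higher rank correlation without these 94 genes thus follow from the choice. Nothing is read from that change. The flanks had no such minimum, and a limited range of exon CHG can lower its rank correlation. Whether exons agreed less than flanks between the libraries was therefore not tested, and the values below are descriptions. The rank correlation between libraries over the 1258 genes was 0.62 for exon CHG and 0.68 for exon CG. It was 0.93 for promoter CHG and 0.94 for downstream CHG. Without the 94 genes it was 0.85 for exon CHG and 0.85 for exon CG, against 0.94 for CHG in either flank. The SD of the CHG difference without them was 12.1 points in exons, 10.5 in promoters and 10.9 downstream. In the 878 genes that met the thresholds in each library it was 10.5, 10.04 and 11.2 points. Those genes were kept for their exon levels in each library, which removes many large exon differences and sets no limit on the flanks. Nothing is therefore read from the like spread of exons and flanks. The rank correlations in the 878 genes were 0.87 for exon CHG and 0.94 for CHG in either flank. The 94 genes had mean promoter CHG levels of 49.6% under light drought, against 47.0% under normal water.

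By a fixed size of 20 points, exon CHG was higher under light drought in 105 of the genes (8.35%) and lower in 95 (7.55%). Over all 29073 genes the background was 0.709% higher and 0.729% lower. A gene whose average is under 10% cannot differ by 20 points, and the choice of genes used the exon CHG average, so nothing is read from this excess. Without genes listed at 0 in either library, 69 were higher and 37 lower. Exon CG was higher by 20 points in 102 genes (8.11%, background 1.55%) and lower in 82 (6.52%, background 0.973%). Above 0 in both libraries these were 63 and 24. Listed zeros thus made up a large share of the exon counts. For exon CHG the choice of genes fixed this. A gene with an average of at least 20% and a 0 in 1 library always differs by more than 20 points. Exon CHH was higher by 10 points in 34 genes (2.70%, background 0.898%) and lower in 35 (2.78%, background 0.43%), or 12 and 4 above 0 in both libraries. Of all genes, 34.8% had an exon CG average under 5% and 85.7% an exon CHH average under 5%. Such genes cannot reach these sizes, so nothing is read from the CG and CHH excess either. Among the CHG- and CHH-methylated genes, exon CG was higher in 2.56% and lower in 2.56%. Their exon CHH was higher in 5.88% and lower in 2.16%.

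Where exon CHG differed by this size, exon CG did so too in part of the genes, and listed zeros weigh on these counts. In 83 of the 94 genes with exon CHG at 0 in 1 library, all exon cytosines together were at 0 there. Exon CG was thus at 0 along with exon CHG in those exons. The counts with exon CHG above 0 in both libraries, given below, leave such exons out. Of the 105 genes with higher exon CHG, 74 had higher exon CG and 55 had exon CG higher by at least 20 points. Of the 95 with lower exon CHG, 69 had lower exon CG and 54 were lower by at least 20 points. These genes were picked for their exon CHG difference, so their flanks are given as values and not set against the exons. The share of other genes with both flanks within 10 points is not given here. Nothing is therefore read from the flank counts, which do not show that exons differed apart from their flanks. Promoter and downstream CHG both differed by under 10 points in 73 of the 105 and in 64 of the 95. With exon CHG above 0 in both libraries, 31 of the 69 higher genes also had exon CG higher by 20 points, and 11 of the 37 lower genes had it lower. Both flanks were within 10 points in 51 of these 69 and in 25 of these 37.

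In the flanks, the genes were near the background. Promoter CG was higher by 20 points in 44 genes (3.50%, background 2.63%) and lower in 30 (2.38%, background 1.65%). Promoter CHG was higher by 20 points in 36 genes (2.86%, background 2.08%) and lower in 24 (1.91%, background 1.2%). Downstream CHG was higher by 20 points in 26 genes (2.07%, background 1.5%) and lower in 21 (1.67%, background 0.977%). Both contexts thus differed in a few percent of the genes, in each direction. Promoter CHH was higher by 10 points in 68 genes (5.41%, background 6.36%) and lower in 14 (1.11%, background 0.729%). Downstream CHH was higher by 10 points in 55 genes (4.37%, background 3.81%) and lower in 10 (0.79%, background 0.626%).

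**Figure D5:**
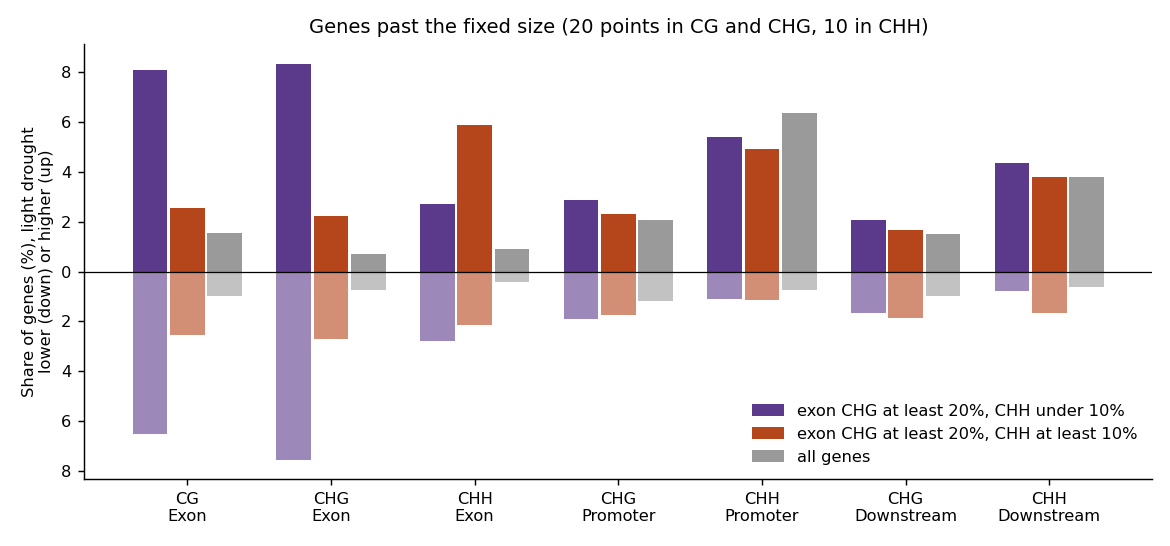
Share of genes (%) that were higher (upward, full colour) or lower (downward, pale) under light drought by at least 20 points in CG and CHG or 10 points in CHH, for the 1258 genes, the CHG- and CHH-methylated genes and all genes. In exon CHG the 1258 genes reach 8.35% higher and 7.55% lower, while in the flanks the groups are close to each other.

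The authors' deposited tables of differential regions assign regions to many of these genes. Of all genes, 80.4% had an exon CHG average under 5% and 85.7% an exon CHH average under 5%. Most genes of the background thus had little exon CHG or CHH that could differ, so nothing is read from a share above it. A CHG region higher under light drought overlapped an exon in 116 of the genes (9.22%, background 1.62%), and a lower one in 75 (5.96%, background 1.04%). CG regions in exons were higher in 62 genes (4.93%, background 2.01%) and lower in 35 (2.78%, background 0.815%). CHH regions in exons were higher in 143 genes (11.4%, background 4.02%) and lower in 70 (5.56%, background 1.73%). Other genes with exon CHG are nearer in level. Genes with exon CHG between 5 and 20% had exon CHG regions more often, at 13.7% higher and 8.49% lower. Genes with both CHG and CHH in exons had fewer, at 1.75% and 1.66%.

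The same limit holds for introns, whose CHG is close to that of the exons. CHG regions in introns were higher in 51 genes (4.05%, background 0.87%) and lower in 28 (2.23%, background 0.612%). CHH regions in introns were higher in 114 genes (9.06%, background 4.18%) and lower in 51 (4.05%, background 1.62%). CG regions in introns were few, with 10 genes higher (0.79%, background 0.347%) and 3 lower (0.24%, background 0.172%).

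In the flanks, CHG and CG regions were found in few genes. CHG regions in promoters were higher in 43 genes (3.42%, background 1.08%) and lower in 18 (1.43%, background 0.55%), and downstream ones were higher in 30 (2.38%, background 0.826%) and lower in 13 (1.03%, background 0.475%). CG regions in promoters were higher in 18 genes (1.43%, background 0.805%) and lower in 18 (1.43%, background 0.457%), and downstream ones were higher in 16 (1.27%, background 1%) and lower in 10 (0.79%, background 0.344%). CHH regions were common in the flanks of genes at large, and promoters of these genes had them about as often. Promoter CHH regions were higher in 343 genes (27.3%, background 25.6%) and lower in 136 (10.8%, background 8.07%). Downstream CHH regions were higher in 305 genes (24.2%, background 16.9%) and lower in 118 (9.38%, background 5.52%). Among the CHG- and CHH-methylated genes, downstream CHH regions were higher in 28.8% and lower in 11.3%. Promoter CHG averaged at least 20% in 65.6% of the 1258 genes, against 40.8% of all genes. For downstream CHG this was 60.1% against 30.2%. Nothing is therefore read from flank shares above the background. In all, the authors' deposited tables assign 361 CHG, 176 CG and 1925 CHH regions to the genes or their flanks, of which 65.4%, 61.4% and 77.1% were higher under light drought. Over all regions of the tables these shares were 61.6%, 70.0% and 80.2%. A corrected p-value under 0.05 in the authors' deposited tables was given for 2 CHG, 2 CG and 4 CHH regions, all higher. In the authors' deposited table, the sign of an exon CHG region matched that of the gene's exon CHG difference in 81.9% of 238 pairs.

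Single genes show the range. Cs3g12830 had the largest positive exon CHG difference among genes above 0 in both libraries, at 85.1% in the light drought library and 26.8% in the normal water library. Its promoter CHG was 50% against 12% and its promoter CHH 39.7% against 18.75%. Its 5' UTR CHG was not higher, at 83.1% against 86.8%. Its exon CG was 66.7% against a listed 0. Cs9g07760 had the most negative difference, with exon CHG of 2.86% under light drought, against 100% under normal water, and with exon CG of 17.5% against 100%. Its downstream CHG was 90.1% against 79.4%, so the flank stayed methylated in both.

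The next 2 genes were picked for the most different exonic CHG regions. In Cs7g28570, the authors' deposited table has a CHG region of 10 cytosines in an exon on chromosome 7 at 29092730 to 29092822, with a difference of 78.3 points and a corrected p of 1. The gene's exon CHG was 58.2% in the light drought library and 18.5% in the normal water library, with downstream CHG at 94.1% and 90.6% and promoter CHG at 0.20% and 0.19%. In orange1.1t04065, the authors' deposited table has a CHG region over exon, intron and promoter at 63039269 to 63039439 of the unplaced sequence, with a difference of -52.4 points and a corrected p of 1. Its exon CHG was 36.6% under light drought, against 66.7% under normal water, and its intron CHG 28.2% against 74.5%, while its promoter stood at 85.95% against 83.0% and its downstream flank at 83.55% against 73.2%. The labels and files name no genome build for these coordinates.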

How the data were processed

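Per the labels' protocols, DNA was converted with the EZ DNA Methylation-Gold kit, libraries were made with the Accel-NGS Methyl-Seq kit and sequenced on a NovaSeq. Tools listed in the submitters' processing notes, with no role, are bedtools 2.26.0, Bismark 0.20.1 and SAMtools 1.4. Genome build, annotation, coverage minimum and conversion rate were not given in the sources used here.

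For each library the authors deposited 1 table of methylation levels in percent (29138 genes for light drought, 29131 for normal water), and for each context 1 table of regions that differ between the libraries, with a p-value, a corrected p-value and a signed difference, a score in percentage points. The 6 columns of group levels were not used, since their names match neither library. The sign of a region difference was read from the order of groups in the tables' name (light drought, then normal water), and set against gene levels in the report. Levels were averaged over both libraries to choose genes and were compared gene by gene, with pandas 2.3.3 and numpy 2.4.6 in Python 3.11.15, and drawn with matplotlib 3.10.9. The steps were tested on simulated data. Depth is unknown, so no interval was computed.

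The genes, gene groups and sizes were chosen with earlier results of these data known. Named genes were to be those with the largest exon CHG or promoter CHH differences, the most and least CHG in the flanks, the least exon CG, the most different exonic regions and those nearest each threshold. Since 0 identifiers matched the reference table, few are printed. No sequence was used here.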

Additional observations from a re-analysis of the deposited data

How the results depend on the processing

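No paired analysis was possible because each condition has 1 library, and leaving one out was likewise impossible. Of 156 alternative values, 83 stayed within 1.5 times the reported value, 71 did not, and 2 changed sign. For those changes the cause was not tested, except that stricter thresholds leave fewer genes. The alternative without the 94 genes whose exon CHG is at 0 in 1 library was chosen after the data were seen.

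The mean exon CHG difference of 0.18 points became -0.396 at an exon CHG threshold of 30% and -0.351 at 40%. It was 0.576 with exon CHH under 5%, 1.15 in genes that met the thresholds in each library, 1.81 without the 94 genes or above 0 in both libraries, and 0.89 as a median. The mean exon CG difference of 0.66 points became 0.130 and 0.391 at exon CHG thresholds of 30 and 40%, 1.25 with exon CHH under 5%, 2.06 in genes that met the thresholds in each library, 2.07 without the 94 genes and 2.16 above 0 in both libraries. Downstream CHG differed by 0.568 and 0.399 points at 30 and 40%, by 1.97 with exon CHH under 5%, and by a median of 0. The median was 0.225 points for promoter CHG, 1.15 for promoter CHH and 0.785 for downstream CHH. Exon CHH differed by 0.437 points with exon CHH under 5%.

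The number of genes was 749 at an exon CHG threshold of 40% and 488 with exon CHH under 5%. Genes with neither flank CHG-methylated made up 10.9% at an exon CHG threshold of 40%. They made up 10.9% with the flank threshold at 10%, and 28.4% with it at 40%, where 26.1% had both flanks methylated.

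Counts of genes past the fixed size are given as higher, then lower under light drought. For exon CHG they were 53 and 49 at an exon CHG threshold of 40%, 58 and 50 with exon CHH under 5%, 36 and 22 in genes that met the thresholds in each library, and 69 and 37 without the 94 genes or above 0 in both libraries. With the size at 10 points they were 227 and 177, and at 30 points 65 were higher. For exon CG they were 55 and 41 at 40%, 58 and 38 with exon CHH under 5%, 47 and 25 in genes that met the thresholds in each library, and 63 and 24 above 0 in both. Without the 94 genes 39 were lower, at 10 points 224 and 145 passed, and at 30 points 56 were higher. For promoter CHH they were 38 and 7 at 40%, 41 and 5 with exon CHH under 5%, 219 and 36 at 5 points, and 26 and 4 at 15 points, and 8 were lower in genes that met the thresholds in each library. Centring on the median difference of all genes gave 57 and 15 for promoter CHH. That median is 0 for exon CG and CHG, so centring could not move their counts.

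A corrected p-value under 0.05 stood beside 2 CG regions, 2 CHG regions and 4 CHH regions that were higher under light drought, and 0 that were lower. A difference of at least 30 points left 12 CG regions higher against 7 lower, and 38 CHG regions higher against 12 lower. A difference of at least 20 points left 596 CHH regions higher against 101 lower. Depth is unknown, so how far reads limit any of these values could not be computed.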
